A study of Mus musculus with 30 samples.

Results

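The simple epithelial keratin genes Krt7, Krt8, Krt18, Krt19, Krt20, Krt23 and Krt80 were described in whole mouse kidney. They were chosen by symbol, as the keratins of kidney epithelium, with earlier results of these data known. Each matched 1 of the 57133 genes in both deposited count tables. The 48 other keratin genes of the tables served as a comparison. Poly-A RNA had been sequenced in 30 libraries of 2 genotypes, a transgenic one (TG), which the labels name Gsta2-H2BeGFP, and wild type (WT, the labels' Wildtype). Ischemia-reperfusion injury (IRI) stops and restores the blood supply of the kidney, and nephrectomy (NX) is the removal of a kidney. There were 6 TG and 6 WT libraries of males taken 4 hours after nephrectomy with IRI, 3 TG and 3 WT libraries of males labelled NX without IRI, 3 TG and 3 WT libraries of females without surgery, and 3 TG and 3 WT libraries of males without surgery. The design text sets TG against WT kidneys at 4 hours to capture early events of the injury response. The series title places the raised Gsta2, a glutathione transferase gene expressed more in females, in proximal tubule cells of males. The promoter of the transgene, strain, age and the hour at which NX kidneys were taken are not given in the labels, and neither is whether each library came from its own animal, so the p-values speak of the spread among libraries, which may be technical.

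Keratins are the intermediate filament proteins of epithelial cells. A filament is built from pairs of a type I and a type II chain, so that neither type forms filaments alone. In simple epithelia the usual pair is keratin 8 (type II) with keratin 18 (type I), and keratins 7 and 19 add to it in ducts. Among the members, Krt7, Krt8 and Krt80 encode type II chains, and Krt18, Krt19, Krt20 and Krt23 encode type I chains. In the healthy kidney, simple keratins are known from collecting ducts, thin limbs and the urothelium that lines the renal pelvis, while proximal tubules make little of them and gain keratins 8, 18 and 20 after injury. In these bulk libraries, more cells that express a keratin and more of its RNA per cell cannot be told apart.

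In GRCm39 the type II genes lie on chromosome 15, Krt80 at 101245325 to 101268043 (minus strand), Krt7 at 101308924 to 101328194 (plus strand) and Krt8 at 101905133 to 101912917 (minus strand). The type I gene Krt18 lies beside Krt8 on chromosome 15, at 101936615 to 101940462 on the plus strand, so that the partners stand head to head with 23697 bases between them. The other type I genes lie on chromosome 11, Krt20 at 99319229 to 99328976, Krt23 at 99368800 to 99383963 and Krt19 at 100031636 to 100039491, all on the minus strand.

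Libraries held 59574069 to 91354407 counts in the table of 18 NX and IRI libraries and 49040915 to 66446450 counts in the table of 12 libraries without surgery. Per the labels' protocols the RNA came from whole kidney. Summed markers of the proximal tubule were at 12173 to 26696 CPM (the counts-per-million scale, with TMM-scaled library sizes) over all libraries. EGFP, the reporter counted through an added entry, had 86 or more counts in every TG library and 0 in every WT library but 1. The exception, labelled WT IRI replicate 1, had 206 counts (2.59 CPM); it is kept here under its label, with member values also given without it. WT NX replicate 0 (the labels' unnumbered library is called replicate 0 throughout) stood apart in markers of other tissue. Its 8 urothelium markers summed to 58.1 CPM, against 5.30 and 1.11 CPM in the other WT NX libraries, and its 5 adipocyte markers summed to 663 CPM, against 15.3 and 18.1 CPM.

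Krt8 had the highest level per length of the 7 members in every group. In CPM per kilobase of exon, it stood at 289 ± 27.7 in TG IRI and 248 ± 68.1 in WT IRI libraries (SD, n = 6 each), and at 39.6 ± 3.26 in TG NX and 42.8 ± 3.25 in WT NX libraries (n = 3 each). In kidneys without surgery it stood at 49.8 ± 2.60 in TG females, 51.2 ± 2.32 in WT females, 52.8 ± 7.27 in TG males and 50.3 ± 4.34 in WT males (n = 3 each), which lay within the spread of each other. Krt18 and Krt7 came next in kidneys without surgery. Krt18 ran from 18.3 ± 4.93 CPM per kilobase in WT males to 27.3 ± 15.98 in TG males and Krt7 from 12.2 ± 1.78 in WT males to 22.1 ± 2.89 in WT females, so that these neighbours were not separated beyond their spread in most groups. Krt19 (3.25 to 5.52 CPM per kilobase), Krt23 (2.87 to 3.81) and Krt80 (2.33 to 3.93) formed a lower level of group means, and Krt20 was lowest at 0.236 to 0.610. After IRI this order changed in its lower part: Krt20 stood at 63.7 ± 16.4 CPM per kilobase in TG IRI libraries, above Krt18 at 45.0 ± 8.72, whereas in WT IRI libraries it stood at 27.1 ± 24.3, against 55.5 ± 11.2 for Krt18.

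**Figure D1:**
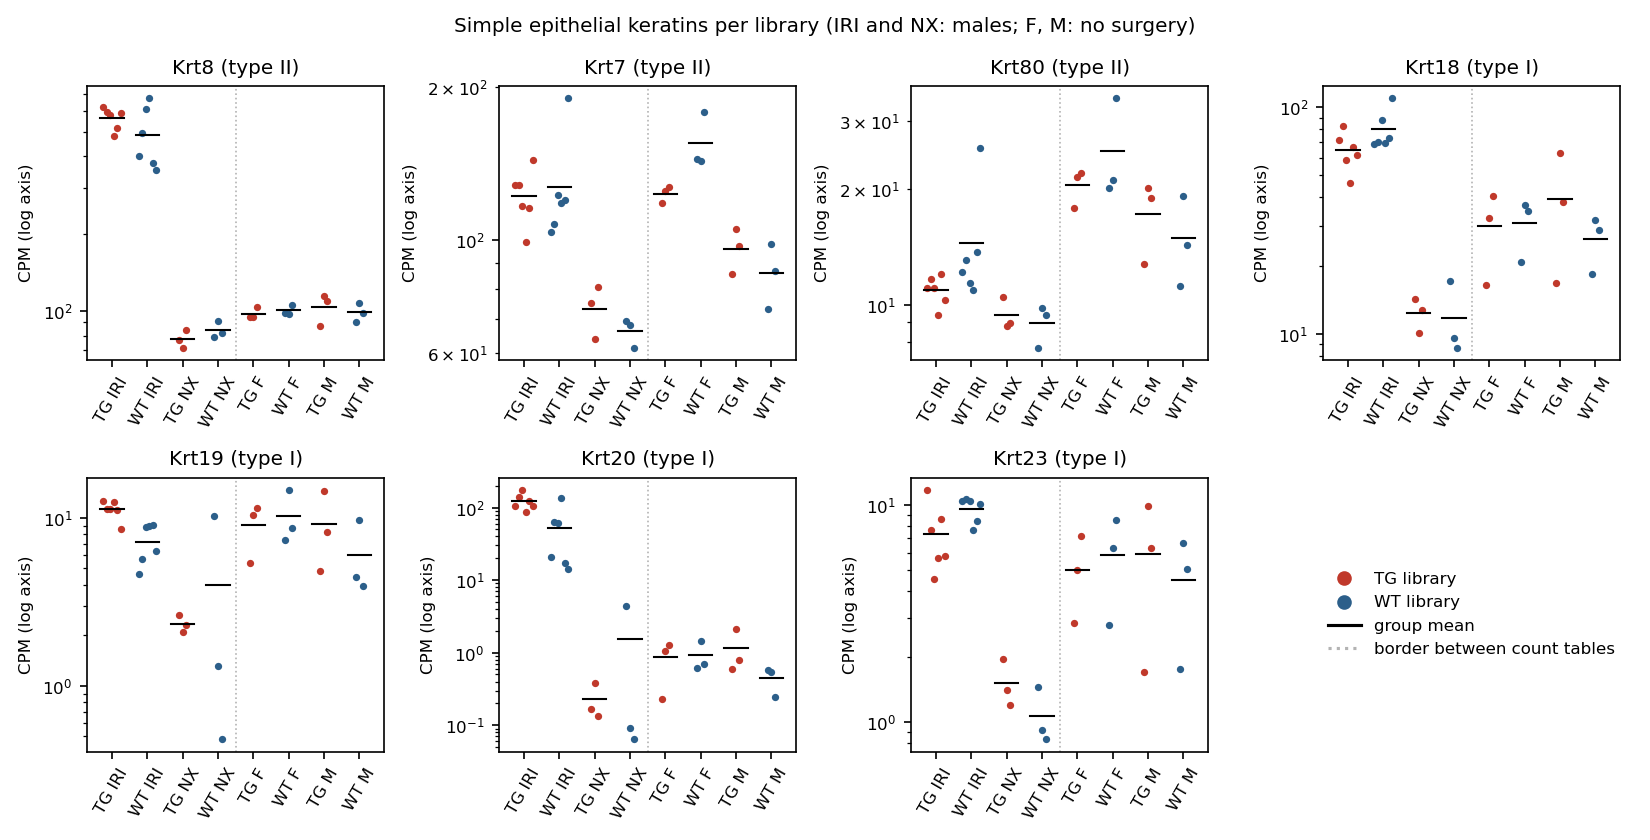
CPM of each keratin gene on a log axis, with 1 point per library (red TG, blue WT) and a black line at the group mean, in 6 libraries per IRI group and 3 per other group. Every IRI library lay above every NX library of its genotype for Krt7, Krt8, Krt18, Krt20 and Krt23, and the no-surgery libraries right of the dotted line come from the other count table.

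At 4 hours after injury, 6 of the 7 keratins were higher in TG IRI than in TG NX kidneys and 6 of 7 in WT IRI than in WT NX kidneys, and 5 rose in both genotypes: Krt7, Krt8, Krt18, Krt20 and Krt23. edgeR's quasi-likelihood test called 29.4% of 19264 genes in TG (16.4% higher) and 30.9% in WT males (16.8% higher) at a Benjamini-Hochberg adjusted p under 0.05. The members' share of 6 in 7 was larger than the share among all genes in both genotypes. Because the members were chosen with earlier results of these data known, this difference in share is a description and was not tested. The median log2 fold change of the 7 members was 2.27 in TG and 2.53 in WT males, against -0.01 over all genes tested in each genotype. Krt19 passed the test in TG alone and Krt80 in WT alone. Neither passed the interaction test given below, which does not show that their changes were equal in the 2 genotypes.

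Krt8, the type II chain of simple epithelia, carried the largest gain in level. It was at 623, 599, 582, 482, 516 and 591 CPM in TG IRI libraries (replicates 0 to 5) and 402, 492, 616, 674, 376 and 353 CPM in WT IRI libraries. It was at 76.6, 71.8 and 84.4 CPM in TG NX and 78.6, 90.9 and 82.0 CPM in WT NX libraries (replicates 0 to 2). The lowest IRI library thus lay above the highest NX library in both genotypes, and the WT IRI libraries were spread more widely than the TG ones. The log2 fold change was 2.87 ± 0.19 in TG (SE, adjusted p = 1.60e-09) and 2.53 ± 0.19 in WT males (adjusted p = 5.85e-09), by edgeR.

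Krt18, the type I partner of keratin 8, was at 46.1, 64.4 and 83.0 CPM (lowest, median and highest) in TG IRI libraries and 69.2, 71.7 and 109 CPM in WT IRI libraries. In NX kidneys it was at 14.3, 10.1 and 12.8 CPM in TG and 17.1, 9.53 and 8.69 CPM in WT libraries. IRI and NX libraries did not overlap, and edgeR gave log2 fold changes of 2.39 ± 0.23 in TG (adjusted p = 2.65e-07) and 2.76 ± 0.24 in WT males (adjusted p = 4.65e-08). The partners stood apart in WT IRI replicate 5, which had the highest Krt18 (109 CPM) and the lowest Krt8 (353 CPM) of its group. That library was also unusual in other genes, as given below.

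Krt20, the type I keratin known from urothelium, gut lining and injured tubules, went up by the largest factor. In TG IRI libraries it was at 104, 142, 175, 88.0, 124 and 103 CPM and in WT IRI libraries at 20.9, 63.1, 61.1, 137, 17.4 and 14.4 CPM (replicates 0 to 5). In NX kidneys it was at 0.166, 0.384 and 0.133 CPM in TG and 4.42, 0.0916 and 0.0644 CPM in WT libraries, which is 10 to 24 counts per TG library and 286, 6 and 4 counts in the WT ones. The WT NX library with 4.42 CPM is replicate 0, the one with the urothelium markers. edgeR gave log2 fold changes of 9.13 ± 1.22 in TG (adjusted p = 1.31e-05) and 5.09 ± 0.96 in WT males (adjusted p = 0.000476). Among 19264 genes ranked by log2 fold change, Krt20 was number 11 in TG and number 213 in WT. Without WT NX replicate 0 the WT change was 9.35 (adjusted p = 1.46e-05).

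Krt23, a type I keratin that is stress-inducible in liver, was at 4.56, 6.72 and 11.7 CPM (lowest, median and highest) in TG IRI and 7.69, 10.2 and 10.6 CPM in WT IRI libraries. It was at 1.95, 1.41 and 1.20 CPM in TG NX and 1.45, 0.916 and 0.837 CPM in WT NX libraries. No NX library reached the lowest IRI library of its genotype. The log2 fold change by edgeR was 2.27 ± 0.28 in TG (adjusted p = 4.85e-06) and 3.17 ± 0.30 in WT males (adjusted p = 1.61e-07). In males without surgery, from the other count table, Krt23 was at 5.96 ± 4.08 CPM in TG and 4.49 ± 2.50 in WT (not tested).

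Krt7, a type II chain of ducts, was already abundant and rose less. It was at 99.1, 123 and 144 CPM (lowest, median and highest) in TG IRI and 104, 119 and 190 CPM in WT IRI libraries, against 64.0 to 80.9 CPM in TG NX and 61.5 to 69.4 CPM in WT NX libraries. The ranges did not overlap, with log2 fold changes of 0.73 ± 0.16 in TG (edgeR, adjusted p = 0.00137) and 0.94 ± 0.16 in WT males (adjusted p = 0.000162). Krt80, a type II chain known from many epithelia, was at 9.38, 11.04 and 12.03 CPM in TG IRI and 10.9, 12.6 and 25.5 CPM in WT IRI libraries. In NX kidneys it was at 8.78 to 10.5 CPM in TG and 7.74 to 9.79 CPM in WT libraries, so that IRI and NX overlapped in TG. The change was 0.21 ± 0.20 in TG (edgeR, adjusted p = 0.483) and 0.69 ± 0.21 in WT males (adjusted p = 0.0162), and the WT change did not pass without WT NX replicate 0 (0.60, adjusted p = 0.0809). Without WT IRI replicate 5, the library at 25.5 CPM, it passed at 0.45 (adjusted p = 0.00643). In males without surgery, from the other count table, Krt80 was at 17.2 ± 3.93 CPM in TG and 14.9 ± 4.01 in WT (not tested).

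Krt19, the type I keratin that lacks most of the tail domain, was at 8.54, 11.3 and 12.6 CPM (lowest, median and highest) in TG IRI and 4.61, 7.58 and 9.02 CPM in WT IRI libraries. In NX kidneys it was at 2.64, 2.08 and 2.29 CPM in TG and at 10.2, 1.31 and 0.483 CPM in WT libraries. WT NX replicate 0 alone lay above every WT IRI library, and the other WT NX libraries lay below all of them. The change was 2.26 ± 0.58 in TG (edgeR, adjusted p = 0.00556) and 0.85 ± 0.54 in WT males (adjusted p = 0.249). Without WT NX replicate 0 the WT change was 3.01 and passed (adjusted p = 4.94e-06). In males without surgery, from the other count table, Krt19 was at 9.14 ± 4.85 CPM in TG and 6.03 ± 3.18 in WT (not tested). Leaving out the library labelled WT IRI replicate 1 kept all 6 WT calls, with log2 fold changes of 0.98 (Krt7), 2.53 (Krt8), 2.79 (Krt18), 5.03 (Krt20), 3.14 (Krt23) and 0.71 (Krt80).

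**Figure D2:**
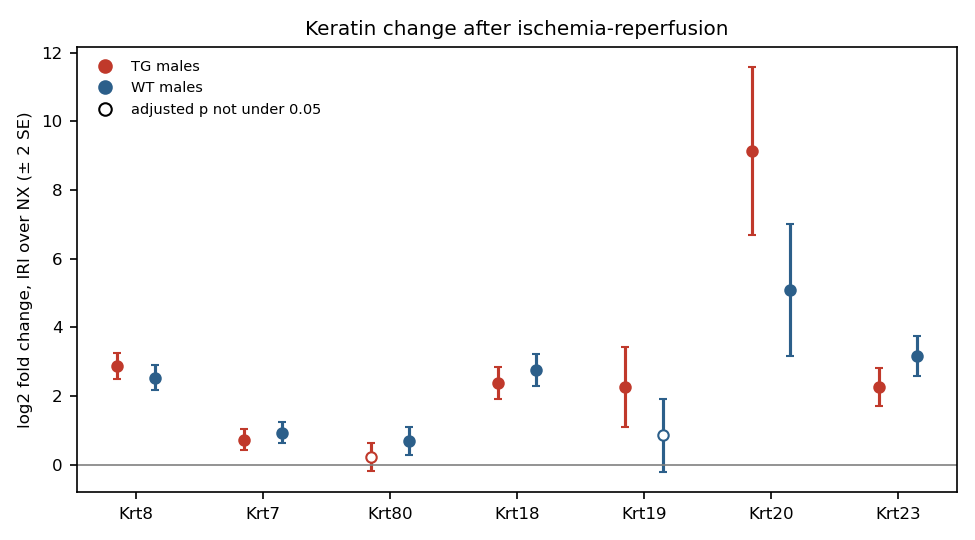
Log2 fold change of IRI over NX for each keratin gene in TG (red) and WT (blue) males, with bars of 2 SE from the edgeR fit of 18 libraries. Open circles did not pass the test, and Krt20 had the largest change in both genotypes (9.13 in TG, 5.09 in WT) with the widest bars.

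Markers of other keratin-bearing cells were set beside these changes. None of the 8 urothelium markers was called in either genotype, and they summed to 11.7 to 26.1 CPM in TG IRI, 5.87 to 21.5 in WT IRI, 8.83 to 23.3 in TG NX and 1.11 to 58.1 in WT NX libraries. No urothelium marker was at 0 in any IRI library, and 2 of 8 were at 0 in WT NX replicate 2. Of 9 tested markers of collecting duct principal cells, 0 rose in TG and 3 rose in WT males, with sums of 520 to 848 CPM in TG IRI, 577 to 1030 in WT IRI, 587 to 648 in TG NX and 544 to 714 in WT NX libraries. Of 8 thin limb and papillary markers, 2 rose and 0 fell in TG, and 4 rose and 1 fell in WT males, with sums of 1073 to 1351 CPM in TG IRI, 856 to 1146 in WT IRI, 1130 to 1270 in TG NX and 1048 to 1216 in WT NX libraries. Of 5 parietal epithelium markers, 3 rose in TG and 4 in WT males, with sums of 339 to 441 CPM in TG IRI, 253 to 457 in WT IRI, 69.7 to 85.2 in TG NX and 67.6 to 86.9 in WT NX libraries. Of all genes, 16.4% rose in TG and 16.8% in WT males, and the marker lists were chosen with earlier results known. The part of these cell types in the keratin changes was not tested.

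RefSeq promoter windows (250 bases before to 50 after the annotated start, GRCm38.p6) were matched to 5 of the 7 members. Those of the 4 members with the largest rises in both genotypes are shown, as the members that changed most after injury. The windows are chr15:102004293-102004592 for Krt8 (minus strand), chr15:102027966-102028265 for Krt18 (plus strand), chr11:99438104-99438403 for Krt20 and chr11:99493071-99493370 for Krt23 (both minus strand). They are written on the strand of the gene, and capitals mark the motifs searched.
Krt8: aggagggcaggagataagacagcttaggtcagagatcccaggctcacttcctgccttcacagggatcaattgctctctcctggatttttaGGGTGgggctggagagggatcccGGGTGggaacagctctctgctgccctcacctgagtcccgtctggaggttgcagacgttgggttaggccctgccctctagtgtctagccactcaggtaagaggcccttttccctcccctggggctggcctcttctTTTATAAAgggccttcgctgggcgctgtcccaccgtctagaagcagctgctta
Krt18: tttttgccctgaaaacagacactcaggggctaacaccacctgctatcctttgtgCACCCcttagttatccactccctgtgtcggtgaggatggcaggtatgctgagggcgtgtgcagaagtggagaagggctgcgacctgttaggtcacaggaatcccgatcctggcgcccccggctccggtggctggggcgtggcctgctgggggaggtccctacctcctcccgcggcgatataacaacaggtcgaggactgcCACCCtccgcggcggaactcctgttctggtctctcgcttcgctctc
Krt20: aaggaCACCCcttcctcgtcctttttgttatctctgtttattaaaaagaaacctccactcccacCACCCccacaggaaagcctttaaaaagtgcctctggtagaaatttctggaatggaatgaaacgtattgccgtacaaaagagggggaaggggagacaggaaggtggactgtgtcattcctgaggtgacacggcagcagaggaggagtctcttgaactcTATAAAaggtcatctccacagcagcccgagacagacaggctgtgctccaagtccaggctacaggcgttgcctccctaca
Krt23: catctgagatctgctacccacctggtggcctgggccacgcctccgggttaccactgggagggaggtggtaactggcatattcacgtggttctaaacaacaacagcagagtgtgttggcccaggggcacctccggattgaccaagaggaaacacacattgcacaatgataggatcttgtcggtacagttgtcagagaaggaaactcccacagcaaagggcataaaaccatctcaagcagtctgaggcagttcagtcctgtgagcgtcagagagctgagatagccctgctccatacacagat

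The 4 motifs were searched on both strands. The AP-1 motif TGANTCA, found in 7.81% of 32851 promoter windows of the same length, was in none of the 5 member windows. The TATA box TATAAA, found in 13.6% of all windows, began 29 bases before the start of Krt20. In the Krt8 window it was read on both strands as overlapping matches that span the start. The CACCC motif, bound by KLF-type factors and found in 57.5% of all windows, occurred 2 times each in Krt8, Krt18 and Krt20, 1 time in Krt7 and 0 times in Krt23. The GC box GGGCGG, found in 35.7% of all windows, occurred 4 times in the Krt7 window and in no other member window. None of the 4 motifs was in the Krt23 window. A match in a window is a description of its letters and shows no binding.

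Per length, the keratin make-up of the kidney shifted after injury. The 7 members summed to 427 ± 44.4 CPM per kilobase in TG IRI and 361 ± 86.5 in WT IRI libraries (n = 6 each), against 62.5 ± 5.52 in TG NX and 65.5 ± 6.46 in WT NX libraries (n = 3 each). Krt8 made up 93.8 ± 0.390% of the type II sum in TG IRI and 91.9 ± 3.51% in WT IRI libraries, against 77.0 ± 0.897% in TG NX and 79.8 ± 1.21% in WT NX libraries. Among type I chains Krt18 led in NX kidneys with 78.4 ± 2.60% in TG and 76.3 ± 16.2% in WT libraries, and held 37.8 ± 4.85% in TG IRI and 62.3 ± 15.8% in WT IRI libraries. The share of Krt20 moved the other way: its part of the type I sum was 45.7 to 64.6% in TG IRI libraries and 15.9, 35.8, 30.5, 55.0, 12.9 and 7.97% in WT IRI libraries (replicates 0 to 5). In NX kidneys its share was 0.630 to 2.16% in TG and 11.1, 0.596 and 0.486% in WT libraries, the first being replicate 0. The ratio of summed type II to summed type I members was 2.62 ± 0.386 in TG IRI and 2.91 ± 0.362 in WT IRI libraries, against 4.76 ± 0.605 in TG NX and 5.76 ± 2.85 in WT NX libraries. On this scale the mean ratio was thus lower after IRI than after NX. WT NX replicate 0, at 2.48, lay within the WT IRI range of 2.26 to 3.26. Without surgery, in the other count table, the ratio was near the IRI values. It was 2.73 ± 1.25 in TG females, 2.64 ± 0.872 in WT females, 2.36 ± 1.25 in TG males and 2.77 ± 0.668 in WT males. These ratios are descriptions of chosen members and were not tested.

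**Figure D3:**
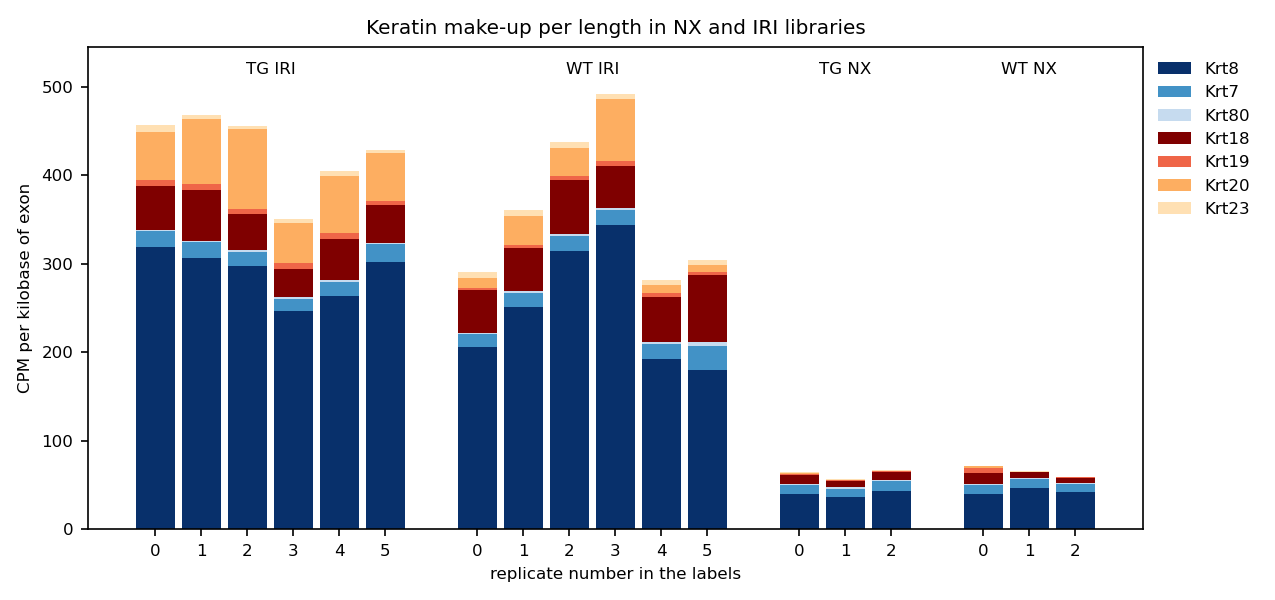
CPM per kilobase of exon of the 7 keratin genes, stacked for each IRI and NX library, with type II chains in blue and type I chains in red to yellow. Krt8 is the largest part of every bar, and the Krt20 part ranges from 45.7 to 64.6% of the type I sum in TG IRI libraries and from 7.97 to 55.0% in WT IRI libraries.

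Between injured TG and WT kidneys, no keratin passed the edgeR test, which called 0.0701% of 17111 genes (12 genes; 0.00584% higher and 0.0643% lower in TG). At an unadjusted p under 0.05 there were 4 members of 7 (Krt18, Krt19, Krt20 and Krt80), against 14.1% of all genes, and DESeq2 called 1 member, Krt19. Krt20 was higher in TG IRI libraries by 1.23 ± 0.45 on the log2 scale (edgeR, adjusted p = 0.271; 2 SE from 0.33 to 2.14). Of the WT IRI libraries 5 lay below the lowest TG library (88.0 CPM), and replicate 3, at 137 CPM, lay above 4 of the 6 TG ones. Without that library the difference was 1.78 with adjusted p = 0.04999, just under the threshold, and without WT IRI replicate 1 it was 1.30 (adjusted p = 0.280).

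Krt19 was higher in TG IRI libraries by 0.63 ± 0.17 (edgeR, adjusted p = 0.164), with 5 of 6 TG libraries above the highest WT library; by DESeq2 the difference was 0.64 with adjusted p = 0.0173. Krt18 differed by -0.32 ± 0.14 (adjusted p = 0.343), Krt23 by -0.40 ± 0.19 (adjusted p = 0.373) and Krt80 by -0.42 ± 0.19 (adjusted p = 0.330), each with overlapping groups. Without WT IRI replicate 5 the differences of Krt18 and Krt80 were -0.20 and -0.17. Krt8 differed by 0.21 ± 0.14 (adjusted p = 0.518; 2 SE from -0.07 to 0.50) and Krt7 by -0.07 ± 0.14 (adjusted p = 0.859; 2 SE from -0.34 to 0.20).

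The interaction asks whether the injury change itself differed between TG and WT. edgeR called 0 of 7 members and 0 (0%) of 19264 genes, with 1848 genes and 2 members, Krt20 and Krt23, at an unadjusted p under 0.05, and DESeq2 called 51 genes and 0 members. For Krt20 the interaction was 4.04 ± 1.36 (adjusted p = 0.407) and for Krt19 1.41 ± 0.74 (adjusted p = 0.567). Without WT NX replicate 0 these were -0.22 (adjusted p = 0.980) and -0.74 (adjusted p = 0.489). For Krt23 it was -0.90 ± 0.36 (adjusted p = 0.467), and the other members lay between -0.48 and 0.33.

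**Figure D4:**
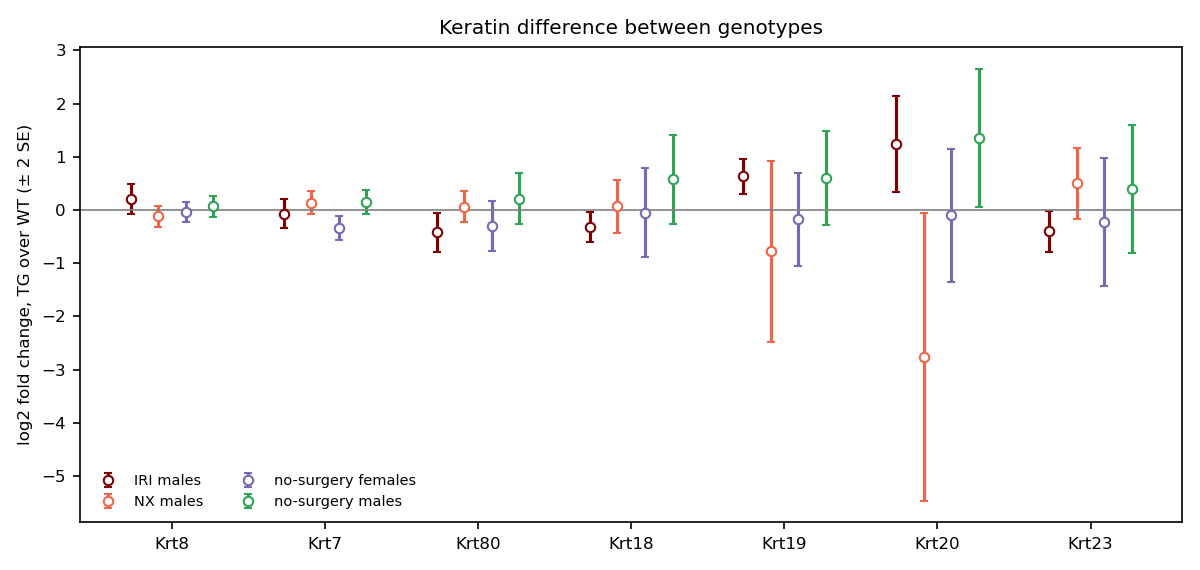
Log2 fold change of TG over WT for each keratin gene in 4 settings, with bars of 2 SE from edgeR. All symbols are open because none passed the test, and the NX values of Krt19 (-0.78) and Krt20 (-2.76) rest on 1 WT library.

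In NX kidneys and in kidneys without surgery, no keratin passed the edgeR test between TG and WT. It called 0.0117% of 17100 genes after NX (0.00585% in each direction), and 0.0418% of 19126 genes in females (0.0209% in each direction) and 0.00523% in males without surgery (all higher). Members at an unadjusted p under 0.05 numbered 0 after NX, 1 in females (Krt7) and 0 in males, and DESeq2 called none. After NX, Krt20 differed by -2.76 ± 1.35 (adjusted p = 0.749) and Krt19 by -0.78 ± 0.85 (adjusted p = 0.873), and without WT NX replicate 0 these were 1.505 and 1.37. Krt7 was at 118, 125 and 127 CPM in TG females and 145, 143 and 179 CPM in WT females, with no overlap and a difference of -0.33 ± 0.11 (adjusted p = 0.393), which was -0.21 without WT female replicate 2. Krt20 was at 0.591, 2.13 and 0.802 CPM in TG males and 0.576, 0.540 and 0.246 CPM in WT males without surgery, again without overlap, with a difference of 1.36 ± 0.65 (adjusted p = 0.916). Without TG male replicate 1, which had the highest urothelium sum of all libraries (126 CPM), it was 0.61.

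WT IRI libraries stood in a nearly shared order for Krt8 and Krt20. In TG IRI libraries the orders differed, and some keratins shared only the lowest library. In WT IRI libraries, replicates 1, 2 and 3 had the highest Krt8 (492 to 674 CPM) and the highest Krt20 (61.1 to 137 CPM), and replicates 0, 4 and 5 the lowest of both (353 to 402 and 14.4 to 20.9 CPM). Krt7, Krt18 and Krt80 had their highest WT IRI values in replicate 5. That library was also highest of the 6 in 8 of 13 marker sums, among them those of the podocyte (523 CPM, against 259 to 336 in the other 5) and of the distal convoluted and connecting tubule (3137 CPM, against 1316 to 1992). The part of these cell types in the values of replicate 5 was not tested. In TG IRI libraries, replicate 3 was lowest in Krt7, Krt8, Krt18, Krt20 and Krt80, while its Krt19 was the second highest.

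Without surgery, Krt8 was the steadiest member, from 87.3 to 114 CPM over 12 libraries (1.31-fold), and Krt20 the least steady, from 0.232 to 2.13 CPM (9.20-fold). Krt18 (16.5 to 62.7 CPM), Krt19 (3.94 to 14.7 CPM) and Krt23 (1.71 to 9.84 CPM) spread 3.72 to 5.77-fold. Urothelium markers are set beside them. In TG males these markers summed to 35.2, 126 and 57.4 CPM, with Krt18 at 16.8, 62.7 and 38.3 CPM and Krt23 at 1.71, 9.84 and 6.32 CPM (replicates 0 to 2). The library with the highest urothelium sum of its group was also highest in 7 of 7 members in TG females, 3 of 7 in WT females, 7 of 7 in TG males and 6 of 7 in WT males. Krt18 and Krt19 were among those members in each of these 4 groups. The share of all genes that peaked in those libraries was not computed, so these counts have no background beside them. The same libraries were highest of their group in summed adipocyte markers (112 CPM in TG females, 242 in WT females, 254 in TG males and 154 in WT males) and in summed mesothelium markers (27.5, 29.9, 34.6 and 19.4 CPM in the same order). The mesothelium list holds the member Krt19 and the urothelium marker Upk3b, so its sum is not independent of either. Thin limb and papillary markers summed to 1712, 2038 and 2053 CPM in TG females (replicates 0 to 2). In WT females they summed to 1683, 2458 and 2501 CPM. For males the sums were 1350, 2143 and 1896 CPM in TG and 1263, 1983 and 1794 CPM in WT. These sums, those of principal cells and urothelium, and Krt18 and Krt23 were lowest in replicate 0 of each group. How much of these keratins came from urothelium, other attached tissue, thin limbs or collecting ducts was not tested.

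**Figure D5:**
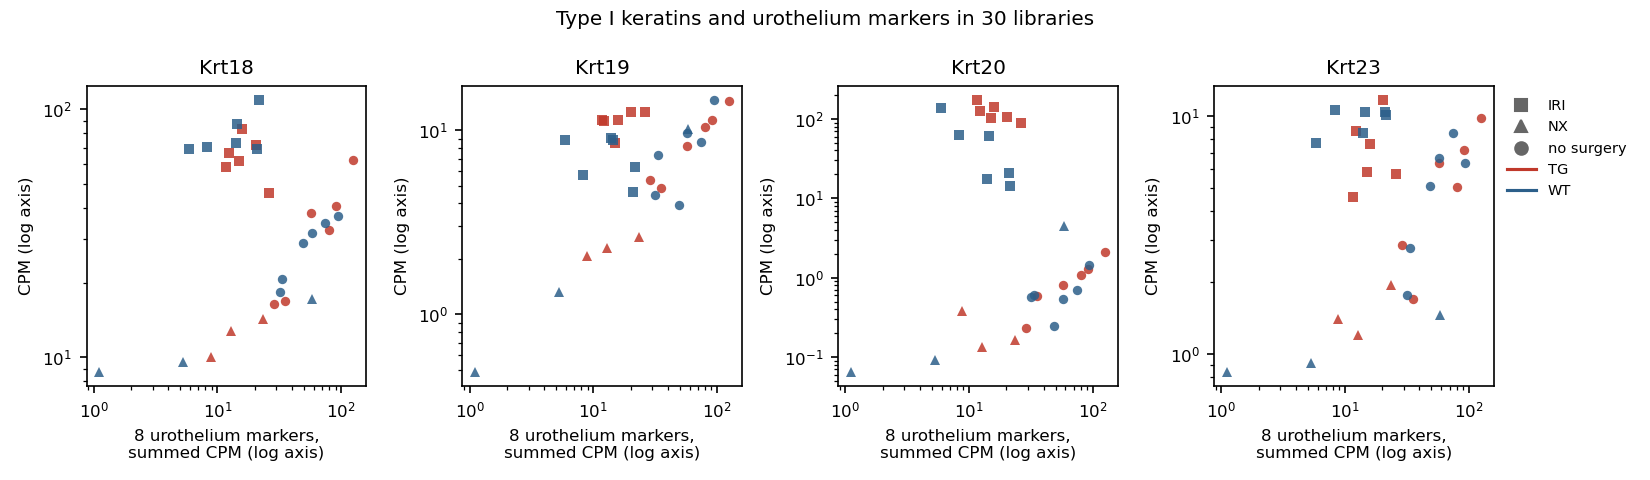
CPM of 4 type I keratin genes against the summed CPM of 8 urothelium markers in 30 libraries, both on log axes, with squares for IRI, triangles for NX and circles for no surgery (red TG, blue WT). The IRI libraries lie above the others at marker sums of 5.87 to 26.1 CPM for Krt20, and the WT NX library at 58.1 CPM is highest of the NX libraries in Krt18, Krt19 and Krt20.

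Between females and males without surgery, Krt7 passed in both genotypes and Krt80 in WT mice. edgeR called 21.2% of 19126 genes in TG (9.87% higher and 11.3% lower in females) and 21.3% in WT mice (10.1% higher and 11.3% lower), against 1 of 7 members in TG and 2 of 7 in WT mice, all higher, which is near the share among all genes. Krt7 was at 118, 125 and 127 CPM in TG females against 85.7, 105 and 97.2 CPM in TG males, and at 145, 143 and 179 CPM in WT females against 73.4, 98.4 and 86.8 CPM in WT males. Every female library lay above every male library of its genotype. The log2 fold change was 0.36 ± 0.11 in TG (adjusted p = 0.0401) and 0.85 ± 0.12 in WT mice (adjusted p = 0.000218), and the TG call was lost without any 1 of 5 of the 6 compared libraries (0.29 to 0.39, adjusted p 0.0754 to 0.147).

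Krt80 was at 20.04, 21.04 and 34.3 CPM in WT females against 11.2, 19.1 and 14.3 CPM in WT males (0.76 ± 0.24, edgeR adjusted p = 0.0397). The call did not hold without WT female replicate 2, WT male replicate 0 or WT male replicate 2 (0.46, 0.59 and 0.73). In TG mice Krt80 did not pass (0.24 ± 0.24, adjusted p = 0.5262). The other 5 members were not called in either genotype, with Krt8 at -0.09 ± 0.10 in TG and 0.02 ± 0.10 in WT mice. Whether the sex difference differed between genotypes was not tested. Markers of many segments were higher in females: 3 of 9 principal cell markers in TG and 5 of 9 in WT, 3 of 8 thin limb markers in TG and 1 of 8 in WT, and in both genotypes 6 of 6 intercalated cell markers, 6 of 6 of the distal convoluted and connecting tubule, 4 of 5 of the thick ascending limb and 4 of 5 of the podocyte. Among all genes 9.87% were higher in females in TG and 10.1% in WT, so that the thin limb count in WT was near that share. Principal cell markers summed to 1008 to 1430 CPM in TG females and 775 to 1178 in TG males, and to 1308 to 1845 CPM in WT females and 638 to 949 in WT males. Their part in the Krt7 and Krt80 differences was not tested.

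Of the 48 other keratin genes, 41 stayed under a mean of 1 CPM in every group, and the highest group mean was 5.45 CPM. The 7 that reached 1 CPM were Krt5, Krt10, Krt14, Krt15, Krt87, Krt222 and the pseudogene Krt8-ps. After IRI 2 of 10 tested rose in each genotype by edgeR, and none fell. That is near the share of all genes that rose, 16.4% in TG and 16.8% in WT males. The 2 genes were the same in both genotypes. They were Krt87, at 0.428 ± 0.343 CPM in TG IRI and 0.0974 ± 0.110 in TG NX, and 1.07 ± 0.433 in WT IRI and 0.0833 ± 0.0188 in WT NX libraries, and Krt8-ps, by 2.97 ± 0.33 in TG and 1.93 ± 0.31 in WT males. Krt8-ps held 0.223 to 1.99% of the count of Krt8, with which it may share reads. Krt5, the type II keratin of basal cells, was at 2.16 ± 1.33 CPM in TG IRI and 0.840 ± 0.371 in TG NX, and 1.03 ± 0.584 in WT IRI and 1.75 ± 2.87 in WT NX libraries, and did not pass (1.35 ± 0.94 in TG, -0.77 ± 0.87 in WT). Genes on the opposite strand overlap exons of Krt7 (Gm671), Krt8 (Gm36026) and Krt80 (Gm35853), with counts of at most 0.660%, 0.221% and 9.68% of the member's count in any library. Whether reads were counted by strand is not given in the sources used here.

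The proteins that hold keratin filaments were examined with the keratins. Of 11 plakins and other linkers, which tie filaments to desmosomes and other structures, 6 rose and 1 fell after IRI in each genotype. Desmoplakin (Dsp) was at 96.1 ± 21.2 CPM in TG IRI and 32.8 ± 4.97 in TG NX, and 109 ± 32.1 in WT IRI and 26.6 ± 5.0 in WT NX libraries. Periplakin (Ppl) rose by 1.68 ± 0.29 in TG and 2.51 ± 0.31 in WT males, and plectin (Plec), which links filaments to each other, by 1.78 ± 0.27 and 1.32 ± 0.26 in TG and WT. The plakophilins Pkp2 and Pkp3 and plakoglobin (Jup) were the other linkers that rose. Their log2 changes in TG were 1.47, 1.72 and 0.84, and in WT 1.26, 1.04 and 0.57. Pkp4, named after its values were seen, was the one that fell in both (-0.24 in TG, -0.28 in WT). Of 3 tested desmosomal genes 2 rose in TG and 1 in WT males, Dsg2 in both (0.72 ± 0.21 in TG, 1.13 ± 0.21 in WT). The median log2 fold change of the linkers was 1.47 in TG and 0.57 in WT males, against -0.01 over all genes. The share of all genes that rose was 16.4% in TG and 16.8% in WT males. The linker and desmosomal lists were chosen with earlier results known, so their counts are descriptions.

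Other intermediate filament genes rose in 6 of 10 cases in TG and 5 of 10 in WT males, with none lower. The share of all genes that rose was 16.4% in TG and 16.8% in WT males. Nes (nestin) rose by 1.81 ± 0.19 in TG and 1.87 ± 0.19 in WT, Lmna (lamin A/C, the nuclear lamina) by 1.84 ± 0.17 and 1.54 ± 0.16, and Vim (vimentin, of mesenchymal and injured epithelial cells) by 1.11 ± 0.20 and 1.06 ± 0.20. Of 11 keratin-binding adaptors and modifiers 3 rose in TG and 3 in WT males, with 0 and 1 lower. Sfn, the 14-3-3 sigma protein, was at 47.8 ± 8.71 CPM in TG IRI and 3.495 ± 0.584 in TG NX, and 50.1 ± 13.7 in WT IRI and 4.10 ± 1.88 in WT NX libraries. Hspb1, the small heat shock protein that associates with keratin filaments, was at 164 ± 35.4 CPM in TG IRI and 10.3 ± 3.22 in TG NX, and 286 ± 79.2 in WT IRI and 14.9 ± 8.40 in WT NX libraries.

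Transcription factors of epithelia were led by Krüppel-like factors. Of 16 listed, 10 rose and 1 fell in TG, and 11 rose and 1 fell in WT males. The lists here were chosen with earlier results known, and 16.4% of all genes rose in TG and 16.8% in WT males. Klf6 was at 601 ± 134 CPM in TG IRI and 29.6 ± 1.24 in TG NX, and 793 ± 162 in WT IRI and 27.7 ± 2.54 in WT NX libraries. Klf5, which is known to act on keratin genes, rose by 3.97 ± 0.26 in TG and 3.98 ± 0.27 in WT males, Klf4 by 2.98 ± 0.23 and 2.698 ± 0.22, and Elf3 by 1.64 ± 0.15 and 1.80 ± 0.15. All 7 AP-1 factors rose in both genotypes. In the 12 IRI libraries 3 of these 7 were lower in TG than in WT by edgeR: Fos (-1.10 ± 0.17), Jun (-1.36 ± 0.23) and Junb (-0.55 ± 0.09), each with adjusted p = 0.0435. No gene was called, these 3 included, without TG IRI replicate 0, 2, 3 or 5 or without WT IRI replicate 0, 4 or 5. Of 13 injured tubule markers 13 rose in TG and 11 in WT males, among them Cldn4, a tight junction gene (3.98 ± 0.32 in TG, 4.47 ± 0.33 in WT).

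Across the 18 NX and IRI libraries, the genes whose pattern was closest to each keratin were named by the smallest root-mean-square difference of centred log2 CPM among 14549 genes. Closest to Krt8 (own spread 1.29) were Tubb6 (0.225) and Rcan1 (0.229), and closest to Krt18 (spread 1.26) was Anxa1 (0.239). Krt7 (spread 0.438) was nearest to St14 (0.126) and Iqgap1 (0.139), and Krt23 (spread 1.33) to Zc3h12a (0.326) and Plk2 (0.367). Krt19 (spread 1.28) had no gene nearer than Asns (0.607) and Itga2 (0.621). Krt20 (spread 3.97) was nearest to Fosl1 (1.30), an AP-1 factor, and Vgf (1.33). Krt80 (spread 0.355) was nearest to Nphs1 (0.166), the podocyte gene of nephrin.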

How the data were processed

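Whole-kidney poly-A RNA was read from both fragment ends after column extraction, per the labels' protocols. Per the submitters' processing notes the authors used fastp 0.23.2 and STAR 2.7.0 with the build GRCm39, and per the file headers the counting program was featureCounts 2.0.3, over the exons of each gene of an Ensembl annotation to which an EGFP entry was added. The authors deposited 2 tables of unnormalized counts. The headers' options are not legible; 37.3 to 41.9% of counts of at least 10 were odd, so both reads of a pair may have been counted, and halved counts were tried.

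GENCODE M21 supplied symbols by identifier (51880 of 57133 matched). Groups came from the labels. Members and lists were chosen with earlier results of these data known. CPM use TMM factors within each table, and levels set across the tables were not tested. Differences were tested with edgeR 4.0.16 in R 4.3.3 (quasi-likelihood, two-sided, TMM, filterByExpr, 1 coefficient per group, Benjamini-Hochberg over all tested genes, adjusted p under 0.05). IRI against NX and the interaction used all 18 libraries of their table, TG against WT its own 12 or 6, and no-surgery comparisons all 12. The code was tested on simulated counts. Alternatives were RLE factors, no count filter, DESeq2 1.42.0, halved counts, the replicate number as a block, each library left out, and TMM over all 30 libraries for levels.

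Besides the 7 keratins, the text names up to 6 genes per pathway list with the smallest p in IRI against NX in WT, other keratins of at least 1 CPM, overlapping genes and the 2 nearest genes per keratin (log2 CPM with a prior count of 2), of which some are not reported here. Same-numbered libraries deviated together, with every correlation over 0.1, in IRI against NX in WT (0.122 to 0.192) and in females against males in TG (0.112 to 0.377), and the block changed no member's call there. RefSeq promoters are from GRCm38.p6, while gene positions are from the deposited tables.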

Additional observations from a re-analysis of the deposited data

Results flagged for a closer look

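Of 14 groups of 6 libraries (7 keratins in 2 IRI groups), 3 held a library far from the other 5, where chance gives about 1 in 20. Krt7 was at 190 CPM in WT IRI replicate 5, against 104 to 123 CPM in the other WT IRI libraries. Krt80 was at 25.5 CPM in the same library, against 10.9 to 13.7 CPM. Krt19 was at 8.54 CPM in TG IRI replicate 5, against 11.2 to 12.6 CPM in the other TG IRI libraries.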

How the results depend on the processing

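Of 856 alternative values of member changes, 811 kept their direction and their side of the threshold, 9 lost the call, 4 gained it and 32 changed sign, none of them called. RLE factors, halved counts and no count filter changed no member's call or direction. The calls that moved are given in the report, except that Krt19 passed in females against males in WT with the replicate block (0.79, adjusted p = 0.0269). Only 2 comparisons had all same-numbered correlations over 0.1; over 27 pairs in all 9 comparisons they ran from -0.04 to 0.52, and 19 libraries correlated best with their own number. With the replicate block Krt19 turned to 0.25 in TG against WT after NX and to 0.078 in females against males in TG. The block changed no other member's call.

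Counts over all genes were less stable in the TG against WT comparisons. After IRI, where edgeR called 12, there were 43 without a count filter, 363 by DESeq2 (with 1 keratin), 5 with the replicate block and 0 to 109 with 1 library left out (0 to 1 keratins). After NX (2 genes) these counts were 127, 45, 1 and 2 to 15. In females without surgery (8 genes) they were 107, 220, 40 and 1 to 22, with 14 for halved counts, and in males (1 gene) 15 and 14 without a filter and by DESeq2, and 1 to 2 with a library left out. The interaction (0 genes) gave 51 by DESeq2 and 0 to 1 with a library left out. Members called in females against males were 0 to 1 in TG and 1 to 2 in WT with a library left out.

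Leaving out libraries gave these ranges for changes that crossed 0. The interaction ran from -0.74 to 1.91 for Krt19 and -0.22 to 4.59 for Krt20. TG against WT after IRI ran from -0.12 to 0.087 for Krt7. After NX it ran from -0.11 to 0.44 for Krt18, -1.30 to 1.37 for Krt19, -3.33 to 1.505 for Krt20 and -0.033 to 0.13 for Krt80. In females it ran from -0.080 to 0.0032 for Krt8, -0.34 to 0.24 for Krt18, -0.37 to 0.17 for Krt19, -0.50 to 0.37 for Krt20 and -0.57 to 0.14 for Krt23, and in males from -0.0054 to 0.18 for Krt8 and -0.17 to 0.84 for Krt23. Females against males ran from -0.76 to 0.11 for Krt18, -0.32 to 0.47 for Krt19, -0.86 to 0.29 for Krt20 and -0.69 to 0.32 for Krt23 in TG, and from -0.034 to 0.090 for Krt8 in WT. The cause was not tested. With TMM over all 30 libraries levels were 0.872 to 1.09 times those reported. DESeq2 gave no adjusted p for Krt19 in the comparisons that used the NX libraries. Counting error limits Krt20 in NX kidneys most, at 4 to 24 counts outside WT NX replicate 0.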
